A study of Mus musculus with 2 samples.

Results

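The allantois cells described here were picked by their own transcripts, as cells with at least 2 spliced UMIs (unique molecular identifiers, each 1 captured transcript) of Tbx4 and at least 1 of Pitx1, none of Cdh5, and embryonic globin transcripts (Hba-x, Hbb-bh1 and Hbb-y) below 0.5% of the cell's spliced UMIs. This rule found 966 of 18233 cells: 642 of 8981 in the tdTom+ library (7.15%, exact 95% interval 6.62 to 7.70) and 324 of 9252 in the tdTom- library (3.50%, 3.14 to 3.90). The experiment was a chimaera assay in which tdTomato-labelled Gata1-null embryonic stem cells were injected into C57BL/6 blastocysts of E3.5, and whole dissociated embryos were sorted by flow cytometry and run on the 10x v3 platform. The tdTom+ cells descended from 1 mutant clone with a 38 bp frameshift mutation in exon 4 of Gata1. It was made in a male line from a ROSA26tdTomato male crossed with a C57BL/6 female. The tdTom- cells were wildtype cells of the C57BL/6 hosts. Both libraries came from 1 pool of 6 chimaeric embryos, labelled E8.5 for tdTom+ and E8.6 for tdTom-. The 2 libraries therefore differ in genotype, in donor against host origin, in cell line history and in the sexes of the cells, and these cannot be told apart. With 1 library per fraction no test between fractions was possible. Intervals below are exact 95% limits for counting error only. Between fractions, a gene is counted as higher or lower where its fold is at least 2 and its interval excludes no change. Against other cells, a gene is counted where its ratio is at least 2-fold in both libraries, without an interval.

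The allantois is the extraembryonic mesoderm that grows from the posterior end of the embryo towards the chorion and forms the umbilical vessels and the fetal vessels of the placenta. Tbx4, a T-box factor, and Pitx1, a paired-type homeodomain factor, are known from the allantois and from the hindlimb. Chorio-allantoic attachment depends on Vcam1 on the allantois, and vessels form inside the allantois from Kdr-positive precursors under the ETS factor Etv2. Gata1 acts in red cell and megakaryocyte precursors.

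The cells were deeply sampled in both fractions. The median was 18309 spliced UMIs per cell in tdTom+ (range 3003 to 88753) and 17723 in tdTom- (3821 to 54500), with medians of 4210 and 4195 detected genes and 1.86% and 1.90% mitochondrial UMIs. Summed over cells this gave 12501897 and 6194348 spliced UMIs. Of the 642 and 324 cells, 32 and 22 were called doublets by Scrublet and were kept. The libraries shared 18 barcodes, of which 1 belonged to one of these cells and none to such cells in both libraries. Gata1, the targeted gene, had 8 UMIs in the tdTom+ cells (0.64 CPM, counts per 1000000 spliced UMIs) and 7 in the tdTom- cells (1.13 CPM), close to the 0.97 and 1.15 CPM in neural cells of the same libraries. These neural cells had at least 2 Sox2 UMIs, at least 1 of Sox3, Sox1 or Pax6 and none of Hand1 or Foxf1 (802 tdTom+ and 1568 tdTom- cells). They also had no UMI of Tbx4, Pitx1 or Cdh5 and the same globin limit as the rule. They stand in for free RNA below, but only for genes that neural cells do not express themselves. Mest, for example, was found in 98.4% of tdTom+ neural cells. Gata1 was thus at background in both genotypes.

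The label was set beside 4 markers, of which the rule had used Tbx4 and Pitx1. Tbx4 stood at 221 CPM in the tdTom+ and 216 CPM in the tdTom- cells, against 3.15 and 2.20 CPM in all other cells of each library. Pitx1 stood at 544 and 502 CPM against 45.4 and 29.0 CPM. Plac1, an X-linked placental gene not used by the rule, stood at 214 and 209 CPM against 12.9 and 13.6 CPM. Phlda2, an imprinted regulator of placental growth, stood at 796 and 5032 CPM against 28.3 and 339 CPM. The levels of Tbx4 and Pitx1 were set by the rule. Plac1 and Phlda2 were chosen as markers with earlier results known, so their levels describe the cells and are no independent check. Plac1 and Phlda2 were far above the other cells in both libraries, and of the 2 Plac1 was nearly equal between fractions. Phlda2 was not particular to these cells in tdTom-, where 88.6% of Hand1-mesenchyme cells, a neighbouring group defined below, also had it. Those cells had a median of 9 Phlda2 UMIs, against 89 in the tdTom- and 3 in the tdTom+ cells described here. In tdTom+, 23.8% of Hand1-mesenchyme cells had Phlda2. Plac1 was found in 25.7% of that group in tdTom+ and 22.4% in tdTom-.

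Plac1 and Hoxa11 changed most between cells with no Tbx4 UMI and cells with 1, and less across the Tbx4 threshold itself. Among cells that met the other conditions, Plac1 in tdTom+ was 22.9 CPM in 1120 cells with no Tbx4 UMI, 118 CPM in 141 cells with 1, 167 CPM in 156 cells with 2, 227 CPM in 138 cells with 3 and 229 CPM in 348 cells with 4 or more. Hoxa11 over the same 5 classes was 4.46, 45.5, 54.7, 68.0 and 69.5 CPM. In tdTom-, Hoxa11 was 3.31 CPM in 853 cells without Tbx4, 38.0 CPM in 121 cells with 1 UMI, 46.2 CPM in 77 cells with 2, 50.5 CPM in 85 cells with 3 and 47.2 CPM in 162 cells with 4 or more. Plac1 in tdTom- was 21.5, 160, 204, 190 and 221 CPM over the same classes. For these 2 genes, cells just outside the threshold, with 1 Tbx4 UMI, lay between those inside it and those with none. Hand1 followed no such order, at 354 CPM in tdTom- cells without Tbx4, 308 CPM with 1 UMI and 346 CPM with 2.

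Marker genes of other cell types were summed over lists of 6 genes each. Endothelial markers totalled 93.8 and 115 CPM against 4.92 and 3.63 CPM in neural cells, with Kdr supplying most of it and Cdh5 at 0 by the rule. Blood markers totalled 202 and 806 CPM and were as high in neural cells, at 211 and 805 CPM. Of that list, Hba-x, Hbb-bh1 and Hbb-y were limited alike in both groups by the choice of cells, so this likeness is no check. Cardiac markers totalled 191 and 436 CPM (113 and 50.6 CPM in neural cells), and single cells held up to 359 and 1063 of those UMIs. Neural markers totalled 24.0 and 44.6 CPM against 521 and 709 CPM in neural cells, and endoderm markers 41.0 and 74.7 CPM against 99.2 and 97.1 CPM. Presomitic markers totalled 10.6 and 12.9 CPM with Mesp2 at 0, amnion and surface ectoderm markers 16.6 and 18.2 CPM, and germ cell markers 30.6 and 24.1 CPM, each below its neural-cell level. Extraembryonic ectoderm markers totalled 512 and 570 CPM, carried by Hand1 and Cdx2, with Elf5 at 3 and 1 UMIs.

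Beyond the 2 genes of the rule, these cells differed from the rest of the embryo in both fractions. Of 12253 genes compared with all other cells of the same library, 142 were at least 2-fold higher in both libraries (1.16% of the genes) and 111 were lower (0.906%). These counts moved with the setting, to 309 and 712 with 1 CPM added in place of 10, and to 80 higher against Hand1-mesenchyme, a neighbouring group defined below by its transcripts. Since the cells were chosen by transcripts, these ratios describe the group and test nothing. The leading 15 genes, ranked by the smaller of the 2 libraries' log2 ratios with 10 CPM added to both sides, opened with Phlda2 (4.39 in tdTom+ and 3.85 in tdTom-) and Plac1 (3.29 and 3.22). Nxf7, a relative of the RNA export factors (3.25 and 3.04), and Spin2c, of the spindlin family (3.04 and 3.43), followed. Amot, a Hippo pathway scaffold, had log2 ratios of 2.80 and 2.99. The mesenchymal transcription factors Twist2 (2.71 and 2.86) and Snai1 (2.42 and 2.39) were among the 15, as were Tbx3 (2.34 and 2.20), Hoxa10 (2.97 and 3.04) and Hoxa11 (2.63 and 2.34). The rest were Peg10, a retrotransposon-derived placental gene (2.53 and 2.70), Slc38a4, an imprinted amino acid transporter (2.47 and 2.63), Morc4 (2.34 and 2.67), Rgs5, known from pericytes (2.32 and 2.80), and Pcgf5, a Polycomb subunit (2.29 and 2.49). Plac1, Nxf7, Spin2c, Amot and Morc4, 5 of the 15, lie on chromosome X, as do 23 of the 142 higher genes (16.2%) and 449 of the 12253 compared (3.66%).

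**Figure D1:**
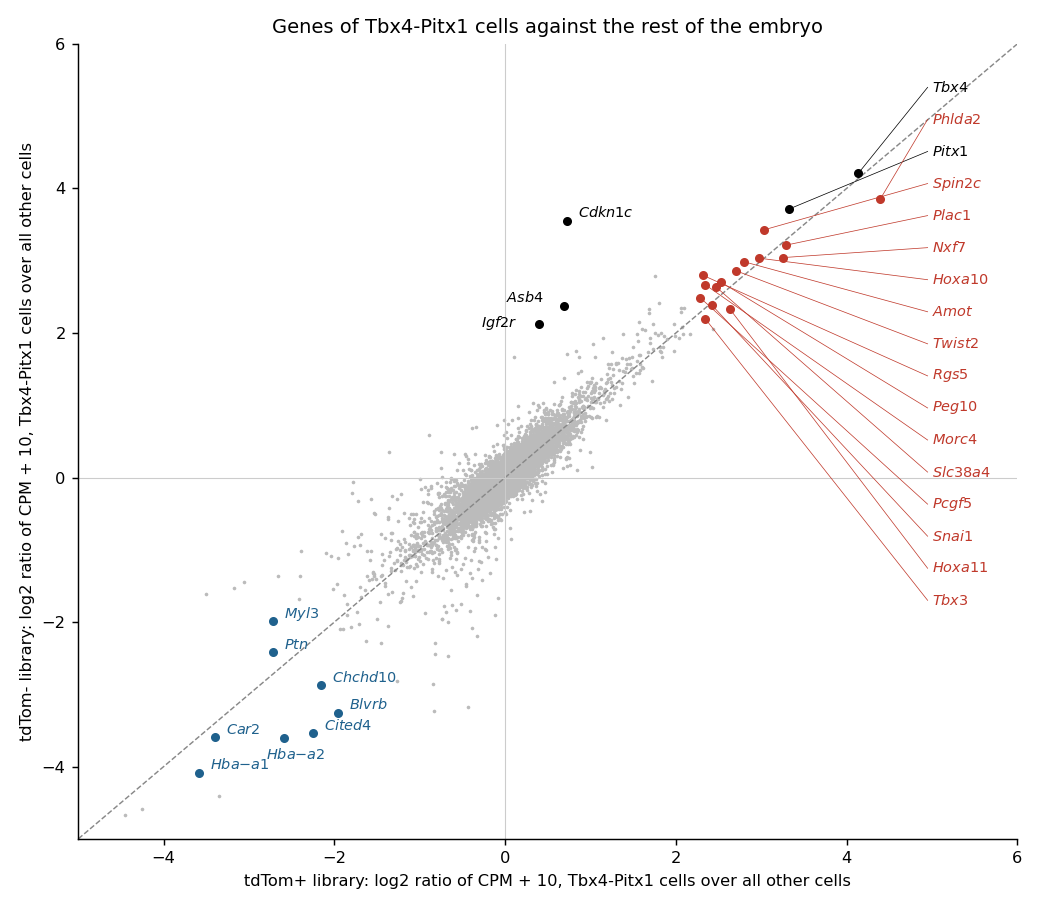
Each point is a gene, with the log2 ratio of Tbx4-Pitx1 cells over all other cells (10 CPM added to each) in the tdTom+ library on the x axis and in the tdTom- library on the y axis. The 15 leading genes (red) and the 8 lowest (blue) lie near the dashed line of equality, while Cdkn1c, Asb4 and Igf2r (black) were high in tdTom- cells only, at 3.55, 2.37 and 2.13 against 0.73, 0.69 and 0.40.

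At the other end were genes of blood and heart. The 8 lowest were Hba-a1 (-3.59 and -4.09), Car2 (-3.40 and -3.59), Hba-a2, Cited4, Chchd10, Myl3, Blvrb and the secreted growth factor Ptn (-2.72 and -2.42). Against Hand1-mesenchyme the ratio changed sign for Hba-a1 and Hba-a2 in tdTom-, for Cited4 and Blvrb in tdTom+ and for Myl3 in both. The rule had limited the embryonic globins, which are coexpressed with these genes in blood. Hand1-mesenchyme was chosen under the same globin limit, so the sign changes of Hba-a1 and Hba-a2 are not independent of it.

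The upstream sequences of 4 genes high in these cells and whose levels were less than 2-fold apart between fractions are shown, as RefSeq gives the 250 bases before each start site on GRCm38.p6, 5′ to 3′ on the gene's strand with each CG in capitals. Plac1 (chrX:53240111-53240360, minus strand) is one of the X-linked placental genes, and Hoxa10 (chr6:52240855-52241104), Hoxa11 (chr6:52245811-52246060) and Hoxa13 (chr6:52260881-52261130), all on the minus strand, are posterior genes of the HoxA cluster.
Plac1: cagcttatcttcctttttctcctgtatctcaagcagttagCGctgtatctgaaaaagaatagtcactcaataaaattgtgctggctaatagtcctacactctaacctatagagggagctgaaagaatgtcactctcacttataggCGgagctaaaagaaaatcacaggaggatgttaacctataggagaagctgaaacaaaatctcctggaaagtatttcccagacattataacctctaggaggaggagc
Hoxa10: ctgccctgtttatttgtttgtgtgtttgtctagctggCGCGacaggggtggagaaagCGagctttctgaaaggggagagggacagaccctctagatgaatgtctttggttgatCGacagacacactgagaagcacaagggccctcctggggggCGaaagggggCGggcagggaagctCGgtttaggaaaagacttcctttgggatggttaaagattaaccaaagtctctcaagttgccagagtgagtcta
Hoxa11: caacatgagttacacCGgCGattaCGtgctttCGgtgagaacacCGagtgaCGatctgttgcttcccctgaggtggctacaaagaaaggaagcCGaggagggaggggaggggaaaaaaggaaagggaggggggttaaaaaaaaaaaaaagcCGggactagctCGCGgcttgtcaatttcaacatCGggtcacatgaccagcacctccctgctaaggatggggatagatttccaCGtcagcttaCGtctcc
Hoxa13: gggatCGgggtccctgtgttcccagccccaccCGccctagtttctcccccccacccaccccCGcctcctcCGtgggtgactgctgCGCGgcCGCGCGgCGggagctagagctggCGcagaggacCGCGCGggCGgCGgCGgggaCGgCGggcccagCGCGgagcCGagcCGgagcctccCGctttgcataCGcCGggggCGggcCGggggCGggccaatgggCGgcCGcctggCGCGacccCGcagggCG
They hold 2, 7, 13 and 35 CG dinucleotides, where the median over 27025 RefSeq upstream windows of this length is 6. TAATCC, the core letters bound by Pitx-type homeodomains, was searched on both strands. It was in none of the 13 windows found for the leading 15 genes and in 1725 of all 27025 (6.38%).

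Transcription factors of posterior and extraembryonic mesoderm were broadly high. The list held 20 factors of that tissue, of the T-box, homeobox, bHLH, GATA, Snail and forkhead families. Of the 20, 15 were at least 2-fold above the other cells in both libraries and none was below, with 10 CPM added. Over all genes the shares were 1.16% higher and 0.906% lower, the background for this count and for the lists set against the other cells below. Tbx2 had 64.4 and 43.4 CPM in the 2 fractions (others 3.72 and 2.85 CPM), Tbx3 had 146 and 110 CPM, and Tbx20, known from the heart and allantois, had 89.9 and 80.7 CPM. Twist1 (465 and 408 CPM), Prrx2 (323 and 331 CPM) and Hand1 (304 and 367 CPM) were the most abundant of the list. Isl1 (82.4 and 86.1 CPM), Foxf1 (139 and 129 CPM) and Gata4 (60.0 and 54.1 CPM) were also among the 15. T, a member of the list that marks the primitive streak, was low at 3.52 and 8.56 CPM against 22.9 and 26.8 CPM in the other cells, and with the added CPM its log2 ratios were -1.28 and -0.99.

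Several posterior HoxA genes were high. Of 19 Hox and Cdx genes with enough UMIs for this comparison, 6 were higher than in the other cells (against 1.16% of all genes), namely Hoxa9, Hoxa10, Hoxa11, Hoxa13, Hoxb6 and Hoxd9. Hoxb1 and Cdx1 were the 2 lower (against 0.906%), and 11 were neither. Hand1-mesenchyme, a neighbouring group, was defined by at least 2 Hand1 UMIs and no UMI of Tbx4, Pitx1, Cdh5, Nkx2-5 or Sox2. It had the same globin limit as the rule (478 tdTom+ and 455 tdTom- cells). No mesenchymal gene besides Hand1 was asked for, and Twist1 was found in 46.0% and 42.0% of its cells, so the group may be mixed. Hoxa10 stood at 116 and 106 CPM, against 4.09 and 2.53 CPM in Hand1-mesenchyme. Hoxa11 stood at 65.7 and 47.8 CPM against 0.74 and 0.27 CPM, and Hoxa13 at 28.6 and 26.2 CPM against 0.37 and 0.40 CPM. The posterior HoxD genes were lower but present, with Hoxd11 at 15.4 and 12.6 CPM and Hoxd13 at 8.16 and 6.30 CPM. The 3' gene Hoxb1 went the other way, at 6.24 and 9.36 CPM against 94.1 and 72.2 CPM in Hand1-mesenchyme. Cdx2 (154 and 151 CPM) was far above Cdx1 (6.96 and 6.94 CPM). In cells thinned to 5000 UMIs, Hoxa10 was detected in 48.1% of tdTom+ and 38.0% of tdTom- cells, Hoxa11 in 28.8% and 22.1%, and Hoxa13 in 12.4% and 14.0%.

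**Figure D2:**
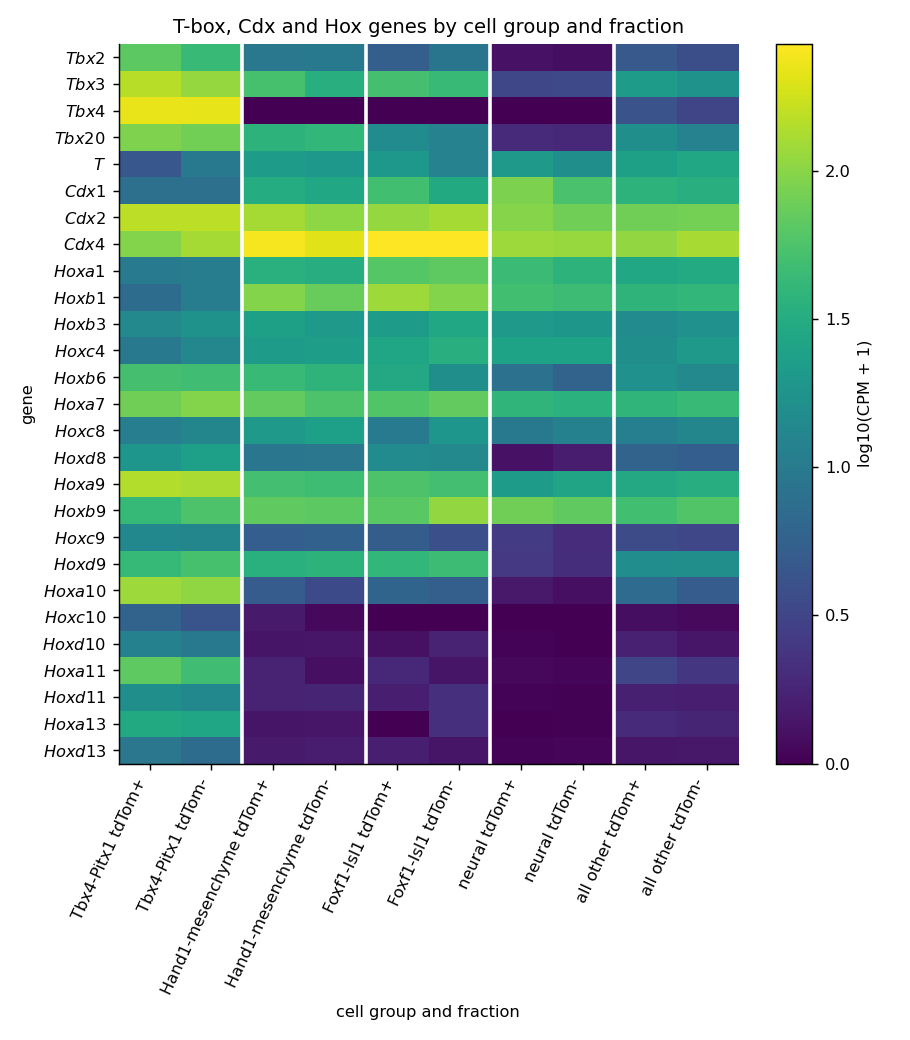
Colour gives log10(CPM + 1) of T-box, Cdx and Hox genes, from summed spliced UMIs, with genes as lines from 3' to 5' positions in the clusters and cell groups by fraction across. The Tbx4-Pitx1 cells had the posterior genes from Hoxa10 down to Hoxd13 in both fractions, apart from Hoxc10, which fell short of 100 UMIs over both. The Hand1-mesenchyme, Foxf1-Isl1 and neural groups had these genes at or below 5.06 CPM.

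Bmp4 and inhibitors of its pathway were among the signalling genes that were higher than in all other cells. In the BMP pathway, 4 of 17 genes were higher than in other cells and none lower, against 1.16% and 0.906% of all genes. They were the ligand Bmp4 (136 and 154 CPM), the pseudoreceptor Bambi (113 and 106 CPM) and the inhibitory Smads Smad6 (30.7 and 28.6 CPM) and Smad7 (157 and 149 CPM). Bmp4 was not particular to the Tbx4-Pitx1 cells. After thinning it was detected in 47.2% of them in tdTom+ and 50.5% in tdTom-. In Hand1-mesenchyme it was detected in 43.5% and 46.0% of thinned cells. The BMP target Id1 stood at 411 and 387 CPM but at 231 and 218 CPM in the other cells, below a 2-fold ratio. Of 22 Wnt and FGF genes, the ligand Wnt5a (124 and 118 CPM) and the Wnt antagonist Sfrp1 (234 and 253 CPM) were higher, and Wnt6, Sp5 and Fgf8 were lower. Wnt2, a ligand of placental vessel growth, stood at 74.7 and 116 CPM. Among 18 vascular genes, Etv2 (160 and 216 CPM) and the secreted factor Vegfa (70.3 and 68.1 CPM) were higher, while Lmo2 and Cldn5 were lower. The rule had left out cells with Cdh5, an endothelial gene, so low levels of endothelial genes follow in part from the choice of cells.

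Vcam1, through which the allantois binds the chorion, led the adhesion and matrix genes. Of 30 genes, 5 were higher and 1, Lum, was lower, against the same 1.16% and 0.906%. Vcam1 stood at 46.9 and 59.7 CPM against 3.68 and 4.23 CPM in other cells and 8.54 and 7.44 CPM in Hand1-mesenchyme. The other 4 were Fn1, Col1a1, Col1a2 and the hyaluronan synthase Has2 (90.1 and 72.7 CPM against 23.6 and 17.9 CPM). Of 20 S phase and G2/M genes, none was 2-fold higher or lower, a count near the share over all genes.

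The 2 fractions were then set side by side. Of 8397 genes with at least 100 UMIs over both groups, 25 were higher in tdTom+ cells (0.298%) and 53 lower (0.631%), together 0.929%, and the median log2 fold over all of them was -0.0091. Thinning the cells to 5000 UMIs gave 9 higher and 27 lower. Subtracting neural-cell CPM gave 390 and 358, which turned the balance. That setting kept the intervals of the unsubtracted counts, so its counts did not follow the same rule. It also took away the level of genes that neural cells express themselves. In all other cells the same contrast gave 259 higher (1.88%) and 310 lower (2.25%) of 13750 genes, and in Hand1-mesenchyme 13 higher (0.156%) and 110 lower (1.32%) of 8358. Groups of cells differ in UMIs, so these shares are not on the same footing. Counts in the lists of transcription factors, signalling, vascular, adhesion and cell cycle genes were near that share. Among these lists were 19 measured transcription factors of posterior and extraembryonic mesoderm, 21 Hox and Cdx genes and 15 BMP genes. Also among them were 10 vascular genes, 26 adhesion and matrix genes and 20 cell cycle genes. None of these genes was 2-fold different, with median log2 folds, in that order, of 0.14, 0.00, 0.10, -0.28, -0.09 and -0.02. Fgf8 was the 1 exception among 19 Wnt and FGF genes (-1.90 [-2.27, -1.54]), with 70.7% of its 181 tdTom- UMIs in 5 cells. Wnt2 (-0.64 [-0.78, -0.50]) and Col1a2 (-0.83 [-0.97, -0.70]) were lower in tdTom+ by less than 2-fold. Unspliced transcripts were 52.1% and 51.6% of Tbx4 UMIs and 7.99% and 7.58% of Pitx1 UMIs, shares whose spliced portion the rule had selected.

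Imprinted genes were among the largest differences between the fractions. Genes expressed from the maternal allele were lower in tdTom+ cells at 4 of 8 measured (median log2 fold -1.44). Genes expressed from the paternal allele were higher at 3 of 13 and lower at 1 (median 0.92). Over all 8397 genes of this contrast, 0.298% were higher and 0.631% lower. The same lists had medians of -1.08 and 1.02 in all other cells and of -1.62 and 0.74 in Hand1-mesenchyme, so the difference was not particular to these cells. Which allele was transcribed cannot be read from these counts.

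Cdkn1c, a cyclin-dependent kinase inhibitor that restrains growth, had the largest fold of the named autosomal genes. It stood at 16.1 CPM in the tdTom+ fraction against 3890 CPM in tdTom- (log2 fold -7.92 [-8.13, -7.72]). UMIs were found in 84 of 642 tdTom+ cells (13.1%, neural cells 3.12%; lowest 0, median 0, highest 40) and in 320 of 324 tdTom- cells (0, 66 and 323). No tdTom+ cell reached the tdTom- median per 10000 UMIs, and 191 of 324 tdTom- cells lay above every tdTom+ cell.

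Phlda2 lies beside Cdkn1c on chromosome 7 (143501545 to 143503150 against 143458339 to 143461050, mm10). It was lower in tdTom+ cells by 2.66 on the log2 scale [-2.69, -2.63]. Its UMIs per cell ran from 0 over a median of 3 to 187 in tdTom+ and from 2 over 89 to 452 in tdTom-. Of the tdTom+ cells, 445 had at least 1 UMI (69.3%, against 4.99% of neural cells in that library), and 16 were above the tdTom- median. Slc22a18, which lies between Phlda2 and Cdkn1c, had 14 tdTom+ and 70 tdTom- UMIs (log2 fold -3.34), below the 100 UMIs asked of a counted gene. Kcnq1ot1, the paternally expressed long RNA of that domain, was higher in tdTom+ (325 and 172 CPM, log2 fold 0.92 [0.82, 1.01]).

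Grb10, an adaptor that damps growth factor receptors, stood at 3.68 and 453 CPM (log2 fold -6.94 [-7.40, -6.52]) and was found in 26 of 642 (4.05%) and 323 of 324 cells. Of its 46 tdTom+ UMIs, 1 cell held 19.6%, and 7.98% of tdTom+ neural cells had a UMI of it. Igf2r, the clearance receptor of Igf2, stood at 25.5 and 342 CPM (-3.74 [-3.92, -3.57]), with 3 tdTom+ cells above the tdTom- median. Asb4, a maternally expressed gene outside the list that is expressed in placental vessels, stood at 22.8 and 157 CPM (-2.78). Other maternally expressed genes did not follow. H19 was higher in tdTom+ (1084 and 726 CPM, 0.58 [0.53, 0.63]), Gnas was near equal (1222 and 1417 CPM, -0.21) and Meg3 had 184 and 77 UMIs (0.24 [-0.15, 0.65]).

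On the paternal side several values sat near 1 on the log2 scale. Impact (212 and 85.1 CPM, 1.32 [1.18, 1.46]), Zrsr1 (1.28 [0.67, 1.93]) and Usp29 (1.13 [0.82, 1.44]) were the 3 of the list counted as higher. Zdbf2, a paternally expressed gene outside the list, was also higher (1.18 [1.00, 1.36]). Peg3 (1886 and 945 CPM, 1.00), Plagl1 (0.98), Peg10 (851 and 438 CPM, 0.96) and Mest (2526 and 1415 CPM, 0.84) lay just under 2-fold. So did Slc38a4 (0.87), which is outside the list. Snrpn (0.36 [0.22, 0.50]), Ndn (0.24 [0.13, 0.35]) and Nnat (0.20 [-0.08, 0.48]) were nearer to equality. In single cells, 583 of 642 tdTom+ cells were above the tdTom- median of Peg3 and 546 were above that of Peg10. Igf2, the fetal growth factor, went the other way at 264 and 710 CPM (-1.43 [-1.49, -1.36]), and was found in 343 of 642 tdTom+ cells (53.4%, neural cells 26.7%) and in 323 of 324 tdTom- cells.

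**Figure D3:**
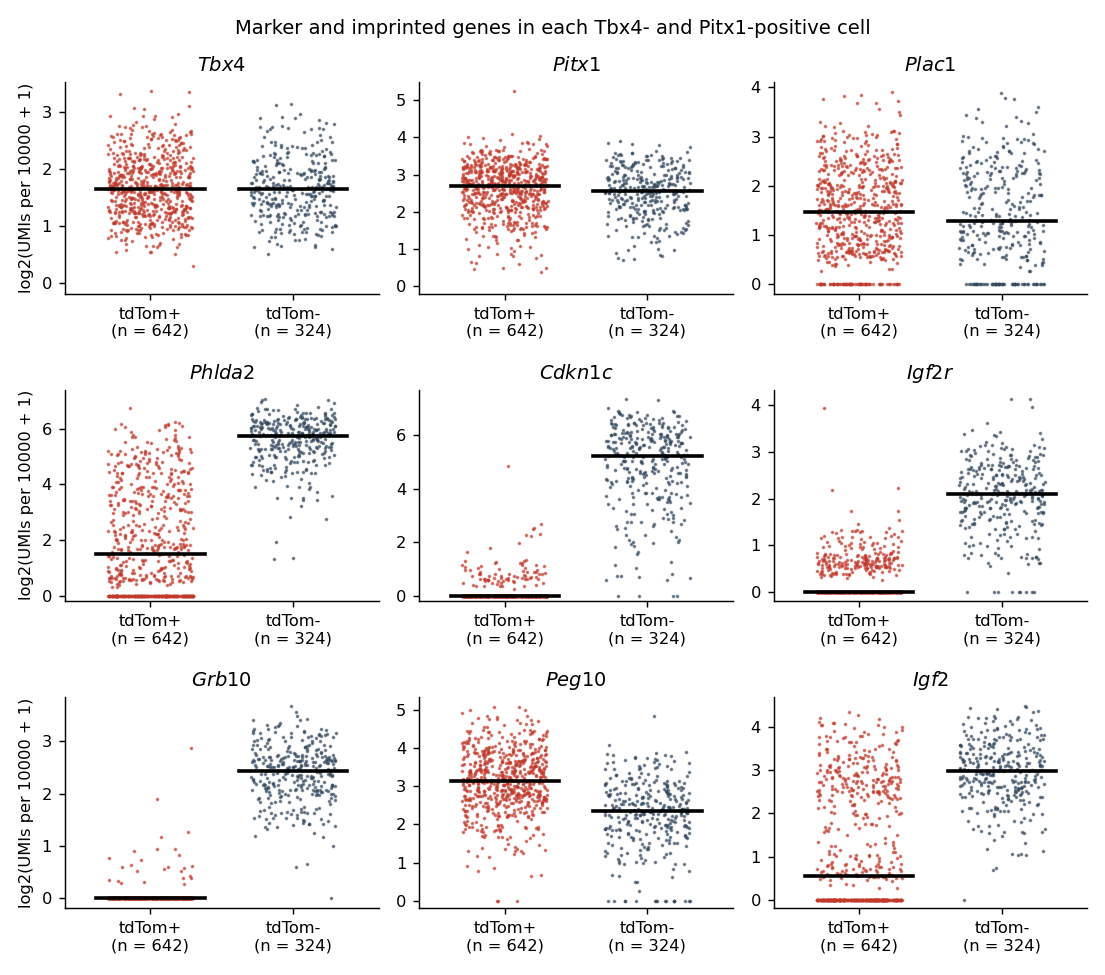
Each point is 1 of the 642 tdTom+ or 324 tdTom- Tbx4-Pitx1 cells, with log2(UMIs per 10000 + 1) on the y axis and a bar at the median. Tbx4, Pitx1 and Plac1 overlap between fractions, Cdkn1c, Igf2r and Grb10 are at 0 in most tdTom+ cells, and Phlda2 and Igf2 spread from 0 into the tdTom- range in tdTom+.

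**Figure D4:**
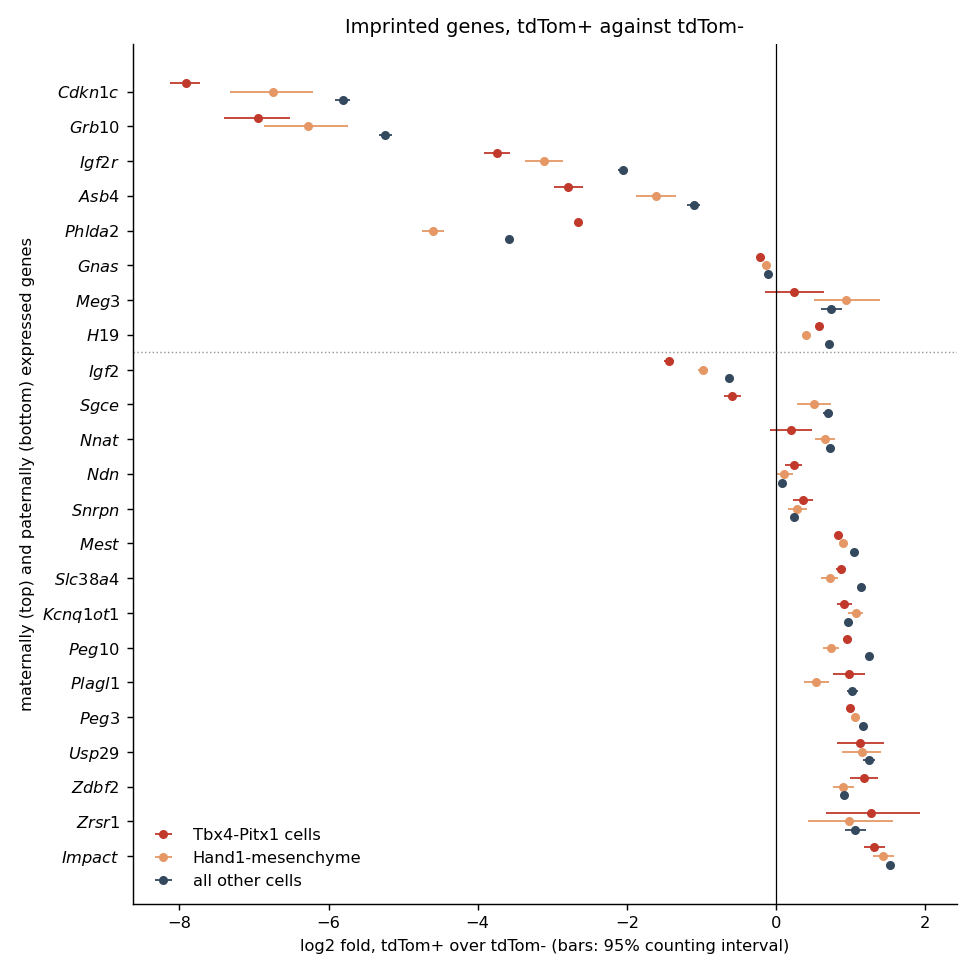
Points give the log2 fold of tdTom+ over tdTom- cells for imprinted genes, and bars the 95% counting interval, in Tbx4-Pitx1 cells, Hand1-mesenchyme and all other cells, with maternally expressed genes above the dotted line and paternally expressed ones below. Sgce (-0.58, 0.51 and 0.69) lies on opposite sides of 0, and Phlda2 was nearer to equality in Tbx4-Pitx1 cells (-2.66) than in the other groups.

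Unspliced transcripts separated Igf2r from Grb10. For Igf2r the unspliced share was 80.7% (78.7 to 82.5) in tdTom+ and 24.1% (22.6 to 25.8) in tdTom- cells, since its unspliced level was equal (700 and 711 CPM of unspliced UMIs, log2 fold -0.02) while its spliced level was not. The antisense RNA Airn overlaps Igf2r (chromosome 17, 12741311 to 12860136 against 12682406 to 12769664), and stood at 7713 and 4338 unspliced CPM. Whether the counting kept the 2 strands apart is not stated in the sources used here, so unspliced reads of the 2 genes cannot be told apart. For Grb10 the unspliced share was 45.9% and 47.8%.

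Phlda2 was uneven among the tdTom+ cells, and the cells were therefore divided by it, a division chosen after the values were seen. In the 227 cells with at least 10 Phlda2 UMIs it averaged 1996 CPM, 197 cells had none and 218 lay between, with median depths of 18437 and 17896 UMIs in the 2 outer groups. Cdkn1c had 164 UMIs in 56 of the 227 cells and 9 UMIs in 8 of the 197 (35.5 and 2.47 CPM, log2 fold 3.85 [2.89, 5.00]). Of the 164 UMIs, 40 were in 1 cell. Slc22a18 had 14 UMIs against 0. Of genes in other imprinted domains, Grb10 had 21 against 7 UMIs (1.24 [-0.04, 2.72]). The others differed by less than 2-fold, with Igf2r at -0.47, Igf2 at -0.25, Peg3 at 0.31, H19 at 0.27, Peg10 at 0.23 and Mest at 0.11. Kcnq1ot1, in the same domain as Phlda2, stood at 0.15. Hoxa10 (-0.02) and Twist1 (0.06) differed little. Etv2 (-1.17 [-1.34, -1.01]) and Kdr (-1.02) were lower in Phlda2-high cells, and Vcam1 (0.99), Nxf7 (0.88), Acta2 (0.66) and Plac1 (0.55) were higher.

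The 12 genes with the largest folds upward held Impact and Zrsr1, given above. The other 10 were Pyy, a gut hormone (36.1 and 12.1 CPM, 1.58 [1.22, 1.95]), the NF-kB regulator Nfkbiz (1.56), Erdr1 (1.42), the near-identical heat shock genes Hspa1a (1.41) and Hspa1b (1.38), the ubiquitin ligase Trim25 (1.34), Fbxw4 (1.20), Zdbf2, the sterol enzyme Msmo1 (1.16) and the polycystin Pkd2 (1.15). Hspa1a and Hspa1b can share reads, as can the copies of Erdr1, so their separate values are uncertain. Pyy also differed in Hand1-mesenchyme (31.3 and 0.53 CPM), where 15 of 478 tdTom+ cells had it and 1 of them held 121 of the 253 UMIs, and Trim25 went the other way there (-1.31). Xist, the RNA of the inactive X, had 1 UMI in tdTom+ and 1086 UMIs in 150 of 324 tdTom- cells, where the donor line is male and the hosts were a pool. Several other genes of the 12 largest downward folds rested mostly on 1 cell. A single tdTom- cell held 94.8% of the UMIs of Ttr, a yolk sac endoderm gene (-4.35), 81.3% of Spink1 (-2.87), 95.3% of the muscle gene Acta1 (-2.72) and 66.7% of Ttn (-2.34). A setting added after the data were seen left out cells holding 10 or more UMIs of the cardiac, neural, endoderm, presomitic or amnion lists. It left 570 and 280 cells. There these 4 genes stood at -0.37, -0.69, 1.86 and 0.31, and Sox2 (-2.12) at -1.26. Ttr and Sox2 are themselves on the endoderm and neural lists, so cells were removed in part by their UMIs. Sox2 was spread wider, with 97 UMIs in 33 tdTom- cells and 12.4% of them in 1 cell.

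Variation among the cells was ranked by the smaller of the 2 libraries' ratios, so the genes named vary in both by choice. In cells thinned to 5000 UMIs, 5160 genes had a variance to mean ratio with a median of 1.04 in each fraction, and 49 genes in tdTom+ and 61 in tdTom- had at least 2, of which 42 did in both. Myl7, an atrial myosin light chain (11.0 and 28.3), stood first, with means of only 0.196 and 0.364 UMI per thinned cell. For the cardiac list that includes it, single unthinned cells held up to 359 and 1063 UMIs, against medians of 2 and 1. Etv2 came next (7.46 and 6.91), then Cdkn1c (6.89 and 12.8) and Phlda2 (12.7 and 6.66). Of the unthinned tdTom+ UMIs of Cdkn1c, 1 cell held 19.9%. Tmsb10 and Tmsb4x, which bind actin, the smooth muscle genes Acta2 (3.76 and 4.87) and Tagln (3.01 and 3.73), Lgals1, Ptn, Hist1h1b, Malat1, Hoxaas3, Ncl and mt-Nd1 completed the first 15.

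Cells with Etv2 had more of several endothelial genes and less of several mesenchymal genes in both libraries. The division, chosen after the values were seen, set cells with at least 3 Etv2 UMIs (86 tdTom+ and 52 tdTom-) against cells with none (396 and 216). Cells with any Cdh5 UMI had been left out by the rule, so the division does not reach them. The Etv2 cells were deeper, with median UMIs of 21941 and 20771 against 17299 and 16983. They had more of the VEGF receptor Kdr (log2 ratio 3.40 in tdTom+ and 3.04 in tdTom-), of Tal1 (3.78 and 5.33) and Lmo2 (4.07 and 4.52), factors shared by blood and endothelium, and of the endothelial junction gene Esam (4.27 and 6.04). Flt1 (2.96 and 3.59), Fli1 (2.22 and 1.60) and Tek (1.49 and 2.04) were also higher. Vcam1 was far lower in them (-4.31 and -5.10), and Acta2 (-1.68 and -3.19), Tagln (-1.80 and -2.22), Pdgfra (-2.08 and -1.43), Hand1 (-1.42 and -1.69) and Bmp4 (-1.27 and -1.37) were lower. Vegfa (-0.79 and -1.37), a vascular gene that acts as a secreted ligand, was lower too. Angpt2, another such ligand, was lower in tdTom+ (-2.12). Its tdTom- interval included no change (-1.65 [-4.01, 0.029], 3 against 31 UMIs). Myl7 (2.53 and -1.10), Cdkn1c (0.63 and -1.40) and Hist1h1b (-0.57 and 0.16) went opposite ways in the 2 libraries. Hoxa13 (-0.80 and -1.04) was lower, while Twist1 (0.09 and 0.06) and Hoxa11 (0.03 and -0.14) differed little. The genes of the rule stood at -0.20 and -0.44 for Tbx4 and at -0.66 and -0.85 for Pitx1, with every cell chosen to hold both. The placental genes Plac1 (-0.98 and -1.01) and Phlda2 (-1.31 and -0.72) were lower. In thinned cells Etv2 was detected in 18.3% of tdTom+ and 20.3% of tdTom- cells, against 2.87% and 3.16% of neural cells.

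**Figure D5:**
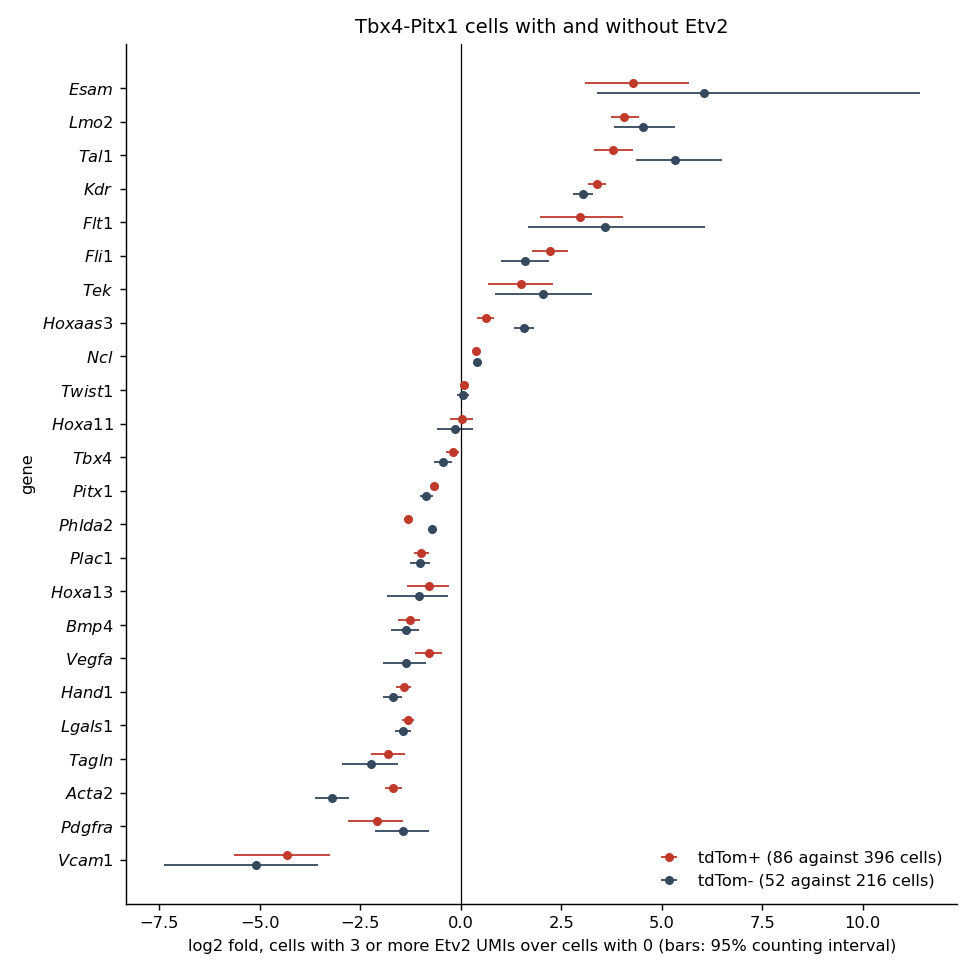
Points give the log2 ratio of summed CPM in cells with at least 3 Etv2 UMIs over cells with none, and bars the 95% counting interval, in tdTom+ (86 against 396 cells) and tdTom- (52 against 216 cells). Esam, Lmo2, Tal1, Kdr, Flt1, Fli1 and Tek lie to the right and Vcam1, Pdgfra, Acta2 and Tagln to the left in both fractions.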

How the data were processed

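The authors aligned the reads to mm10 with a tdTomato sequence added (Cell Ranger 3.0.2, per the labels' processing notes), called cells, and split UMIs into spliced and unspliced with velocyto. The deposited tables hold raw UMI counts per cell and gene, spliced and unspliced apart, and all values were whole numbers; the deposited cell table also gives each cell's percent of UMIs on mitochondrial genes, as the authors computed it. Samples were grouped by the tdTomato label. Cells were taken as deposited; doublets were called with Scrublet (scanpy 1.11.5) and left out only as an alternative. Spliced UMIs were summed over the chosen cells of each library and scaled to counts per 1000000 spliced UMIs (CPM). No pseudocount was used between fractions; ratios of chosen to other cells had 10 CPM added. Fold intervals are exact conditional 95% intervals, and share intervals are Clopper-Pearson; with 1 library per fraction there is no replicate error and no test. A gene with 0 UMIs in a group takes a floor of 3 counts. Detection shares and variance to mean ratios used cells thinned to 5000 UMIs, leaving out 4 tdTom+ and 3 tdTom- cells. The steps were tested on simulated counts.

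The cells, rule, gene lists and divisions were chosen with earlier results of these data known, so none is independent support. Named genes are the rule genes and markers, list members of highest CPM or largest fold, the 12 largest folds each way between fractions with at least 100 UMIs and an interval off 0 (unnamed gene models left out), the 15 highest and 8 lowest against other cells, and the 15 most variable with a thinned mean of at least 0.1 UMI. The unspliced tables, RefSeq upstream windows (matched by symbol) and gene positions from the GENCODE annotation of mm10 served where stated.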

Additional observations from a re-analysis of the deposited data

Results flagged for a closer look

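Sgce, a paternally expressed sarcoglycan gene next to Peg10 on chromosome 6, moved in opposite directions in the Tbx4-Pitx1 cells and elsewhere. In the Tbx4-Pitx1 cells it was lower in tdTom+ than in tdTom- (122 and 183 CPM, log2 fold -0.58 [-0.70, -0.47]), while in all other cells it was higher (29.0 and 17.9 CPM, 0.69) and in Hand1-mesenchyme as well (49.3 and 34.6 CPM, 0.51). Peg10, its neighbour, was higher in tdTom+ in the Tbx4-Pitx1 cells (0.96). The difference between the cell groups was not tested, since each fraction is 1 library.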

How the results depend on the processing

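The sets of cells and the counts of genes moved by over 1.5 times under several settings. A threshold of 4 Tbx4 UMIs left 348 tdTom+ and 162 tdTom- cells, and applying the rule to cells thinned to 5000 UMIs left 202 and 89. The 25 higher and 53 lower genes became 9 and 27 with thinned cells, 108 and 171 with a minimum of 20 UMIs, 124 and 257 with no minimum, and 390 and 358 with the neural-cell CPM subtracted. The last of these settings kept the intervals of the unsubtracted counts and also took away the level of genes that neural cells express themselves. Against Hand1-mesenchyme 80 genes were higher instead of 142, and with 1 CPM added 309 were higher and 712 lower. Thinning to 10000 UMIs gave 101 variable genes instead of 42. Changes of sign were listed for log2 folds between fractions with a main interval off 0. They were Ttr (0.26) and Hoxb3 (0.022) at 4 Tbx4 UMIs, and Acta1 (1.93), Ttn (0.91) and Hoxb1 (1.11) without called doublets. Hoxc4 (0.051) in thinned cells was another. So were Acta1 (1.86), Ttn (0.31) and Hoxb1 (0.26) without cells holding markers of 5 other types, a setting added after the data were seen. Against Hand1-mesenchyme the ratios of Hba-a1 (0.14) and Hba-a2 (0.11) in tdTom-, Cited4 (0.057) and Blvrb (0.044) in tdTom+ and Myl3 in both (0.015 and 0.64) changed sign. The causes were not tested. Of the other single-gene values, which include variance to mean ratios, 639 stayed close to the main value and 160 moved. Folds with a main interval that included no change could also change sign. Angpt1 did so, from -0.30 to 0.65 without cells holding markers of 5 other types.

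No paired analysis was possible because each fraction is 1 library. Leaving out replicates was likewise not done. Donor and host cells differ in more than Gata1. Low genes such as Hoxd13 and Slc22a18 rest on few UMIs, and UMIs of free RNA are in all cells.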

Other observations

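Igf2 was also uneven among the tdTom+ Tbx4-Pitx1 cells, and H19, its neighbour on chromosome 7, went with it in the other direction. In a division chosen after the values were seen, 240 of 642 cells had at least 5 Igf2 UMIs, 299 had none and 103 lay between, with median depths of 19052 and 17773 UMIs in the 2 outer groups. Where Igf2 was present it averaged 643 CPM, and H19, the maternally expressed long RNA of that domain, stood at 735 CPM. Where Igf2 was missing, H19 stood at 1332 CPM (log2 ratio of Igf2 cells over cells with none -0.86 [-0.91, -0.80]). The tdTom- cells, not divided by Igf2, had 726 CPM of H19. In Hand1-mesenchyme of the same library, 181 cells with Igf2 and 201 without had 645 and 807 CPM of H19 (-0.32 [-0.41, -0.24]), but there Mest (0.67) and Peg3 (0.28) differed too, while in the Tbx4-Pitx1 cells Mest (-0.01), Peg3 (0.04), Peg10 (0.10) and Kcnq1ot1 (-0.01) differed by at most 0.10. In tdTom- Hand1-mesenchyme, where 326 cells had Igf2 and only 12 had none, H19 went the other way (1.73 [1.25, 2.25]), and Mest (2.68) and Peg3 (1.90) were higher with Igf2 there too. In the Tbx4-Pitx1 cells Hoxa11 (-0.09 [-0.30, 0.13]) was near level, Phlda2 was close (-0.15), and Etv2 was lower in the cells with Igf2 (-1.03 [-1.17, -0.88]).

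The division by Phlda2 could not be compared in Hand1-mesenchyme of the tdTom+ library, where 8 of 478 cells reached 10 Phlda2 UMIs and 364 had none. In tdTom- Hand1-mesenchyme, 225 cells with at least 10 UMIs had more Cdkn1c than 52 with none (0.92 [0.71, 1.15]) and less Igf2 (-1.12) and Mest (-1.30). Of the placenta-associated genes, Spin2c was level between fractions (609 and 603 CPM), and Rhox5, a homeobox gene of placenta and yolk sac, stood at 20.3 and 34.1 CPM in the Tbx4-Pitx1 cells but at 8.05 and 145 CPM in Hand1-mesenchyme. Of the Y-linked genes, Ddx3y stood at 42.6 and 24.9 CPM and Eif2s3y at 51.7 and 31.0 CPM.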
